A study of Homo sapiens with 4 samples.

Results

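RNA polymerase II (Pol II) was mapped at the ends of noncoding RNA genes that stand apart from protein-coding genes. A peak was taken as a member when its summit lay on chromosomes 1 to 22 or X, within 1000 bp of either end of a noncoding RNA gene of at least 200 bp in the RefSeq gene table of GRCh38.p14. The summit also had to lie outside every protein-coding gene and over 1000 bp from every protein-coding gene end. The NKAP siRNA list held 977 such peaks of 26387 (3.70%, 95% Wilson interval 3.48 to 3.94), and the control siRNA list held 1175 of 36345 (3.23%, 3.06 to 3.42). The share was 0.470 percentage points higher in the NKAP siRNA list (95% Newcombe interval 0.180 to 0.764). With equal numbers of the strongest peaks taken from each list the difference was 0.189 points (-0.129 to 0.508), an interval that includes 0. These intervals cover counting error over peaks only.

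The cells were U2OS, a human osteosarcoma line, transfected with an siRNA against NKAP or with a control siRNA for 48 h by Lipofectamine RNAiMAX and fixed with 1% formaldehyde for 10 min. NKAP is a nuclear RNA-binding protein with known roles in splicing and in transcriptional repression, and the study maps Pol II over the genome after its depletion. Pol II was profiled by chromatin immunoprecipitation and sequencing (ChIP-seq) in 1 library for each siRNA, each with its own peak list, and the labels also name 2 input libraries, which were not used here. Since each siRNA has a single library, values are given side by side without a p-value between them. Intervals on shares, differences and reads cover counting error within these libraries, not variation between replicate libraries. Peak lists do not measure NKAP RNA, so the depletion was not checked here.

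Long noncoding RNAs are transcribed by Pol II, and most are capped, spliced and polyadenylated like messenger RNAs. Their promoters often lie in CpG-rich sequence, and Pol II pauses a short way after the start site, so that ChIP signal gathers there. Some act as RNAs in the nucleus or cytoplasm, some are known chiefly as hosts that carry small nucleolar RNAs or microRNAs in their introns or exons, and for most no function is known. Pol II at a gene end shows the polymerase on the DNA, not the amount of RNA made.

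Each peak carries a fold enrichment at the summit, the authors' own value, relative to the background their peak caller used. The number of reads stacked at the summit was worked out from that fold and its p-value, and came out whole for 99.9% of the control peaks and at least that share of the NKAP siRNA peaks. The weakest peak of each list had 8 summit reads. The caller's background put the depth of the NKAP siRNA library at about 0.857 of that of the control, and the difference in depth and the difference in siRNA cannot be told apart. Of 10 osteoblast-lineage marker genes, 5 carried a peak at an end in each list (SP7, COL1A1, SPARC, BGLAP and MSX2), while RUNX2, COL1A2, ALPL, SPP1 and TWIST1 carried none in either. The epithelial markers KRT8 and KRT18 (2 of 8), and the neuronal markers SYN1, SNAP25 and MAP2 (3 of 4), carried peaks in both lists, and the 4 hepatocyte and the 4 lymphocyte markers carried none.

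The promoter sequences of 6 members show what these sites look like. They run 5′ to 3′ along the gene's own strand from 250 bases before to 50 bases after the RefSeq start (GRCh38.p14). Capitals mark TATAA where the whole word lies within positions -45 to -16 from the start on the gene's strand. They also mark the GC box GGGCGG or its complement CCGCCC, and the CCAAT box CCAAT or its complement ATTGG. A run of pyrimidines at the start (a C within 5 bases of the start, followed by at least 4 pyrimidines) is in capitals too. The first pair are snoRNA hosts with a peak in both lists. SNHG5 (chr6:85678684-85678983, minus strand) has TATAA at -30 and the pyrimidine start typical of genes that make parts of the translation machinery, and SNHG32 (chr6:31834666-31834965, plus strand) has the pyrimidine start but no TATAA.
SNHG5: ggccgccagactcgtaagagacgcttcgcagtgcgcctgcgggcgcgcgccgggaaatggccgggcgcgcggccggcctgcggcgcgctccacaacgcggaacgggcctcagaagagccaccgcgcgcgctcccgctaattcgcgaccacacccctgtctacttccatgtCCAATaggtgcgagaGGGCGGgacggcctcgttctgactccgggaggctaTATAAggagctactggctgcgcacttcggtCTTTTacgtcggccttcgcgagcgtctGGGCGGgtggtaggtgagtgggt
SNHG32: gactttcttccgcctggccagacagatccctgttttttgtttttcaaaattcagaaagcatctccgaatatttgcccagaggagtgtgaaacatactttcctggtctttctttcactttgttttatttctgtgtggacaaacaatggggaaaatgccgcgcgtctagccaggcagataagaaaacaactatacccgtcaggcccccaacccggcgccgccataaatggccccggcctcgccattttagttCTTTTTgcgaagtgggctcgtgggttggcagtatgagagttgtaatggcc
The next pair have little annotation, carry some of the highest folds, and are near copies of each other with 82.3% identity. LOC105373487 (chr2:94947342-94947641, plus strand) holds 7 CCAAT boxes and LOC101930665 (chr17:21612642-21612941, plus strand) holds 6, and both have TATAA at -29.
LOC105373487: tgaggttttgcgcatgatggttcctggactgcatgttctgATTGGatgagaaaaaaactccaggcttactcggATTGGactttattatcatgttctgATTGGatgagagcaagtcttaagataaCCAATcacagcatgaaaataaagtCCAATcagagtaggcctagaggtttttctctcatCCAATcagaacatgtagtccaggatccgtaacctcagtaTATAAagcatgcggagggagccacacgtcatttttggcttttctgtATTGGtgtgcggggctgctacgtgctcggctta
LOC101930665: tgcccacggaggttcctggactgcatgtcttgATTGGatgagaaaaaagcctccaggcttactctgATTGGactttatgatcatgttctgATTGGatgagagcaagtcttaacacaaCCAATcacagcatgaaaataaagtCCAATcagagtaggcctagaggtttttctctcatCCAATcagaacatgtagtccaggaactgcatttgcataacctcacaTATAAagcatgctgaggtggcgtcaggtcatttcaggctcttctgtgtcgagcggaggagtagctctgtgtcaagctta
The last pair carried a start peak in 1 list and the other list had none within 5000 bp. HRAT17 (chr7:112995594-112995893, minus strand) carried a control peak and LOC105370943 (chr15:40906559-40906858, plus strand) an NKAP siRNA peak. Neither window holds TATAA, a GC box or a pyrimidine start.
HRAT17: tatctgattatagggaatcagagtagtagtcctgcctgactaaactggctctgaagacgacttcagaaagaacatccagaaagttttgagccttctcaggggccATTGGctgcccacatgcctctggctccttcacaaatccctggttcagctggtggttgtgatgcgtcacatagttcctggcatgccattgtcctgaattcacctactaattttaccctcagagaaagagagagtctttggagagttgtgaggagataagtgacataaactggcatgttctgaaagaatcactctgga
LOC105370943: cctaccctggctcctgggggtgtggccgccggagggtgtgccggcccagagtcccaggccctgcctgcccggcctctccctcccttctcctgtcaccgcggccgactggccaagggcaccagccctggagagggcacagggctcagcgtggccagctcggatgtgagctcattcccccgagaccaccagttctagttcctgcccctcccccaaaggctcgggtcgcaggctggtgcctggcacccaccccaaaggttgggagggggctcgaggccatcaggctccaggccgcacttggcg

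Summits gathered at the starts of these genes. The promoter table gives a strand for 11383 of the 18187 noncoding genes, and with it the start was the nearest end for 551 NKAP siRNA members and 616 control members. The far end was nearest for 132 NKAP siRNA members and 191 control members, and the nearest gene had no strand for 294 NKAP siRNA members and 368 control members. Around starts the median summit lay 29.0 bp into the gene in the NKAP siRNA list (quartiles -190.0 to 266 bp) and 34.0 bp into the gene in the control list (-164 to 199 bp). Within 250 bp of the start lay 54.1% of the NKAP siRNA start summits and 58.9% of the control start summits.

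**Figure D1:**
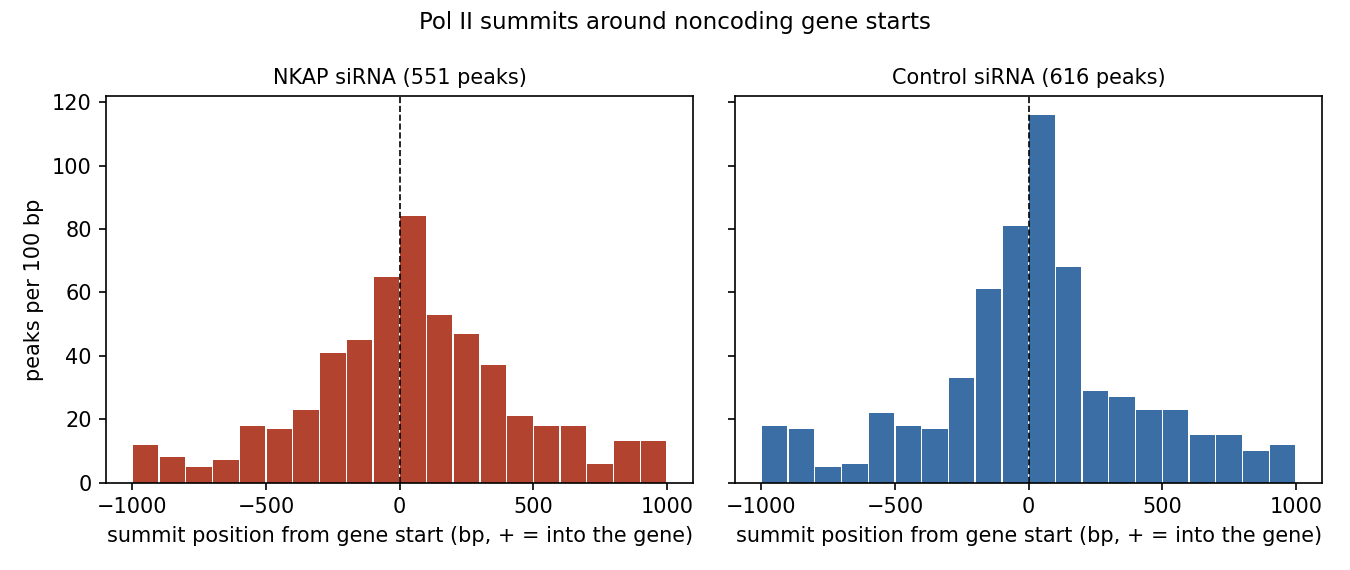
Position of member summits relative to the start of the nearest noncoding gene, in bins of 100 bp, for the 551 NKAP siRNA peaks (left) and the 616 control peaks (right) whose nearest end is a start with a known strand. The vertical axis counts peaks and positive positions lie inside the gene. Both distributions have their highest bin just inside the start, at 84 NKAP siRNA peaks and 116 control peaks.

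The 1000 bp rule cut through a continuous tail. The last 100 bp inside the limit held 47 NKAP siRNA members and 72 control members, with median folds of 6.41 in the NKAP siRNA list and 5.87 in the control list. The first 100 bp beyond it held 41 NKAP siRNA peaks and 57 control peaks, with median folds of 6.50 in the NKAP siRNA list and 6.27 in the control list. Most peaks near a noncoding gene end fell out through a protein-coding neighbour. Of 3621 NKAP siRNA summits and 4064 control summits near such an end, 2041 NKAP siRNA and 2163 control summits were within 1000 bp of a coding gene end, and 603 NKAP siRNA and 726 control summits were inside a coding gene.

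The members lay between coding gene ends and coding gene interiors in strength. The median fold was 7.88 in the NKAP siRNA list (quartiles 5.92 to 11.2, highest 59.3) and 7.47 in the control list (5.60 to 12.0, highest 77.8). At coding gene ends it was 9.84 in the NKAP siRNA list and 11 in the control list, and inside coding genes 6.57 in the NKAP siRNA list and 5.90 in the control list. Members had a median of 20 summit reads in each list. Their median width was 691 bp in the NKAP siRNA list and 793 bp in the control list, and they covered 959 kb in the NKAP siRNA list and 1460.3 kb in the control list.

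The gene names show how little of this set is described. The nearest gene bore a LOC number for 53% of NKAP siRNA members and 53.3% of control members, and a LINC number for 25% of NKAP siRNA members and 26.0% of control members. Antisense names made up 6.96% of NKAP siRNA members and 6.89% of control members, and divergent-transcript names 1.74% of NKAP siRNA members and 2.04% of control members. Host gene names were few, at 3.58% of NKAP siRNA members and 3.15% of control members, but their peaks were strong. Their median fold was 12.5 in the NKAP siRNA list and 12.0 in the control list, and their median width was 1407 bp in the NKAP siRNA list and 1552 bp in the control list. LOC-named genes had median folds of 7.37 in the NKAP siRNA list and 7 in the control list. Every gene but SCARNA2 has the RefSeq biotype lncRNA; SCARNA2, a small Cajal body RNA, has the biotype ncRNA. A small RNA gene lay within 1000 bp of 33 NKAP siRNA members and 37 control members, and a pseudogene within 1000 bp of 79 NKAP siRNA members and 81 control members. A peak that begins at such a gene can be counted here under its noncoding neighbour.

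Most members stood in both lists, and the share went with peak strength. A control peak overlapped 84.6% of the NKAP siRNA members (82.3 to 86.8). The remaining 150 make 15.4%, against 17.2% of all NKAP siRNA peaks, so the members are near the background of their list. An NKAP siRNA peak overlapped 65.3% of the control members (62.5 to 67.9). The remaining 408 make 34.7%, against 45.8% of all control peaks. No control peak lay within 5000 bp of 85 NKAP siRNA members (8.70%, against 8.32% of all peaks of that list). No NKAP siRNA peak lay within 5000 bp of 235 control members (20%, against 22.7% of all control peaks). The control list is the longer, and with equal numbers of the strongest peaks the overlapped shares were 79.0% of NKAP siRNA members and 75.4% of control members, beside 76.9% of all NKAP siRNA peaks and 67.6% of all control peaks.

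Coding gene ends were found in both lists more often than the members were. Of NKAP siRNA peaks at coding gene ends 93.8% were overlapped, and the members' share was 9.15 points lower (-11.6 to -6.98 for members minus coding ends). Of control peaks at coding gene ends 79.8% were overlapped, and the members' difference was -14.6 points (-17.4 to -11.8). Against peaks inside coding genes the members' share was 8.49 points higher in the NKAP siRNA list (5.92 to 10.8) and 28.1 points higher in the control list (25.2 to 30.9). Part of this went with strength: when each list was cut by p-value into 5 groups of equal size, the members' share lay between 63.9% in the weakest and 100% in the strongest group of the NKAP siRNA list, and between 28.0% in the weakest and 98.6% in the strongest group of the control list. At like strength the members were below coding gene ends in 4 of 5 groups of each list, with 0 inside the interval in groups 2 and 3 (from the weakest) of the control list. In the weakest control group they were at 28.0% and coding ends at 25.9% (difference 2.09 points, -4.57 to 9.57), and in the second strongest at 86.1% and 93.6% (-7.55 points, -12.2 to -3.87). Against coding gene interiors at like strength the difference in the NKAP siRNA list was between 0.135 and 4.73 points, with 0 inside each group's interval. In the control list it was 13.9, 15.1, 19.5 and 11.3 points in the 4 weaker groups, each interval above 0.

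**Figure D2:**
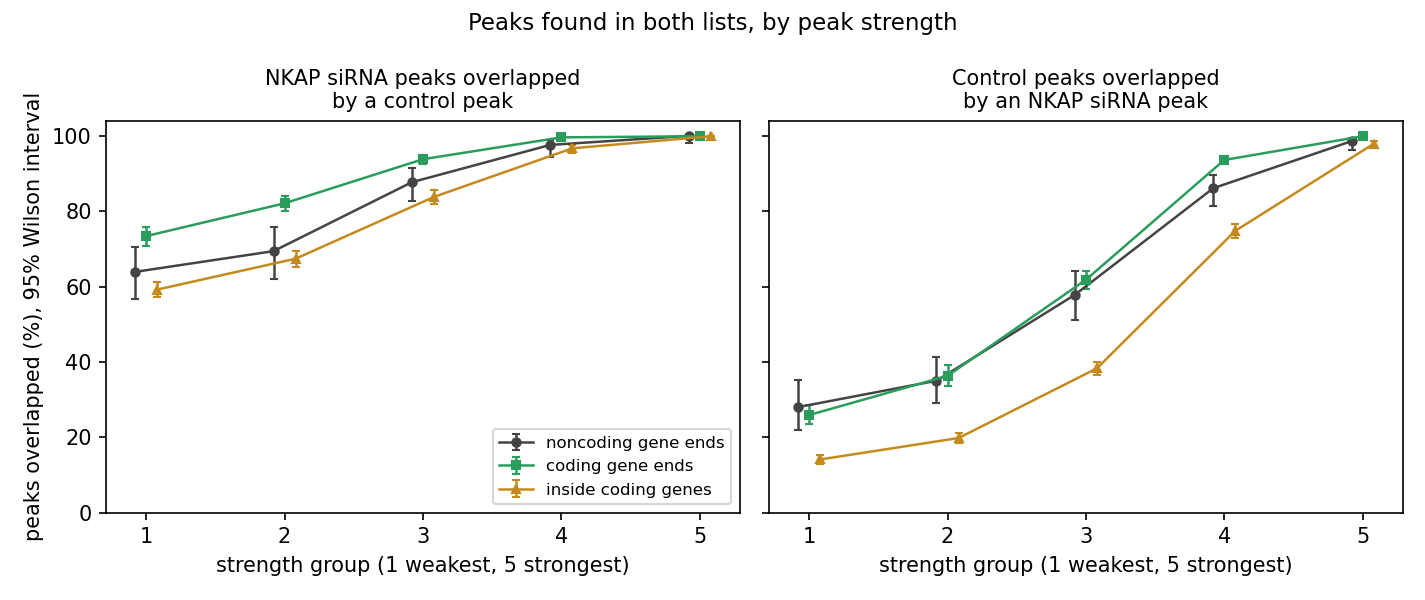
Share of peaks overlapped by a peak of the other list, in percent with 95% Wilson intervals over peaks, by strength group (5 groups of equal size over all peaks of a list, by the authors' p-value). NKAP siRNA peaks are on the left and control peaks on the right. Black circles are peaks at noncoding gene ends, green squares peaks at coding gene ends and orange triangles peaks inside coding genes. The noncoding gene ends range from 63.9% to 100% on the left and from 28.0% to 98.6% on the right, and on the right lie close to coding gene ends in the weaker groups.

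Start peaks of the control list were overlapped in the other list more often than its far-end peaks, while in the NKAP siRNA list the intervals of starts and far ends overlap. At starts 86.2% of NKAP siRNA members (83.1 to 88.8) and 71.3% of control members (67.6 to 74.7) were overlapped. At far ends 79.5% of NKAP siRNA members (71.9 to 85.5) and 50.3% of control members (43.2 to 57.3) were. Far-end peaks were also weaker, with median folds of 6.98 in the NKAP siRNA list and 6.07 in the control list, beside 8.30 in the NKAP siRNA list and 8.36 in the control list at starts. Host gene peaks were overlapped at 94.3% in the NKAP siRNA list (81.4 to 98.4) and 78.4% in the control list (62.8 to 88.6).

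Counted by gene, 926 noncoding genes had a member peak in the NKAP siRNA list and 1095 in the control list. Both lists shared 764 genes, which is 82.5% of the NKAP siRNA genes (79.9 to 84.8) and 69.8% of the control genes (67.0 to 72.4). There were 162 genes in the NKAP siRNA list only and 331 in the control list only. All 1257 make up 9.58% of the 13118 noncoding genes with an end away from coding genes. No like count was made for coding genes. By peak, 15.4% of NKAP siRNA members were not overlapped, against 17.2% of all peaks of that list. For control members it was 34.7%, against 45.8% of all control peaks. With equal numbers of peaks the counts were 207 genes in the NKAP siRNA list only and 203 in the control list only, so the surplus of control genes is absent at equal list length. A gene in 1 list only was often not bare in the other. A control peak lay within 1000 bp of an end of 67 of the 162 NKAP siRNA genes (41.4%), with its summit elsewhere. An NKAP siRNA peak lay within 1000 bp of an end of 78 of the 331 control genes (23.6%).

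Lists of 155 well-known noncoding genes, grouped by role, held 139 that the gene table gives as noncoding RNA genes of at least 200 bp. Of these, 54 had a member peak: 40 in both lists, 7 in the NKAP siRNA list only and 7 in the control list only. Another 37 had a peak near an end that was no member, in 23 of them because the summit lay within 1000 bp of a coding gene end, and 48 had no peak near an end. Over all noncoding genes the counts with a member peak were 764 in both lists, 162 in the NKAP siRNA list only and 331 in the control list only. Among the 40 genes in both lists the fold was lower in the NKAP siRNA list at 28 and higher at 12, and the peak was narrower in the NKAP siRNA list at 36. Over all overlapping pairs of peaks the NKAP siRNA fold was the lower in 63.5% and the NKAP siRNA peak the narrower in 79.3%. The strongest member of each list was taken at a gene, and these overlap at 37 of the 40 genes, all but SNHG17, MIR222HG and HIF1A-AS3. Summit reads could be set side by side at 39, all but SNHG25. Their ratio was below the estimated depth ratio of 0.857 at 23, or 59.0%, beside 59.4% of all pairs. With exact Poisson intervals on the reads and the control scaled to the same depth, the intervals were apart, and lower in the NKAP siRNA list, at CHASERR, where the summits lay close together, and at LINC01638, where the lists placed the summit at different points. They were apart at MIR222HG too, but there the members are unlike peaks at opposite ends of the gene. These intervals make no allowance for the 39 genes looked at, for error in the depth ratio or for variation between libraries.

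**Figure D3:**
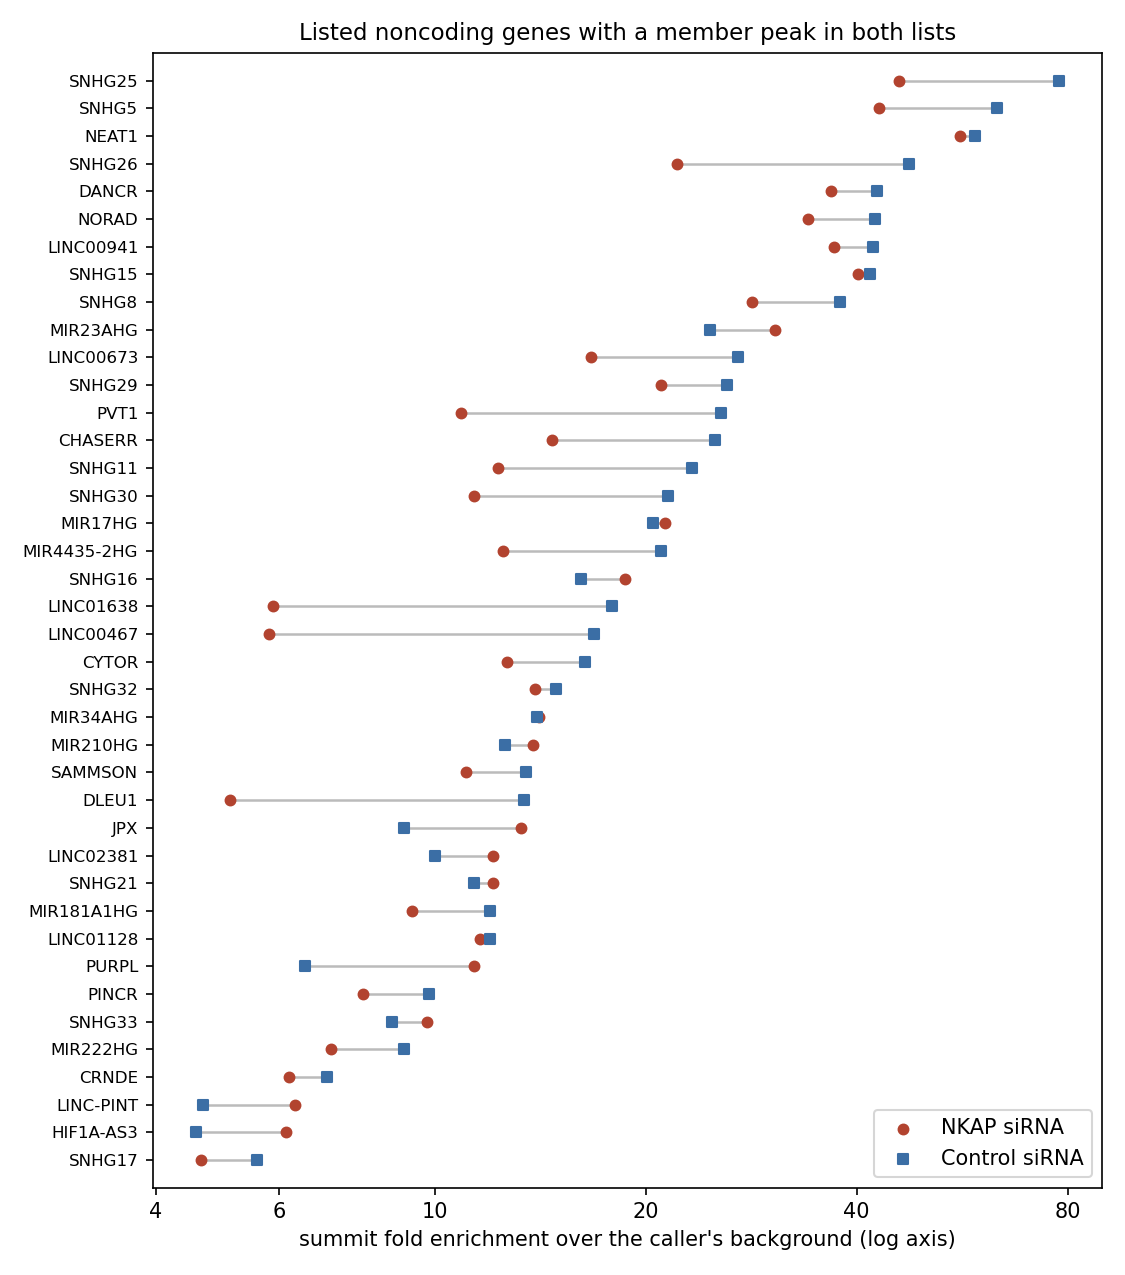
Summit fold enrichment over the caller's background, on a log axis, for the 40 listed noncoding genes with a member peak in both lists, 1 row a gene. Red circles are the NKAP siRNA library and blue squares the control library, joined by a grey line; each point is the strongest member peak of that gene in 1 library, with no replicate. The NKAP siRNA point lies left of the control point at 28 genes, with the longest gaps at LINC01638, LINC00467 and DLEU1.

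Of 18 genes of nuclear bodies and chromatin architecture, 5 had a member peak in both lists. NEAT1, the scaffold RNA of paraspeckles (chromosome 11, 65422798 to 65445540), had one of the strongest and the widest member peak in each list. Its fold was 56.1 with 125 reads in NKAP siRNA cells, against 58.9 with 156 reads in control cells. The peak spanned 12673 bp in NKAP siRNA cells and 13287 bp in control cells. DANCR, known for holding back differentiation of progenitor cells and a host of SNORA26, had a fold of 36.7 with 118 reads in NKAP siRNA cells, against 42.8 with 127 reads in control cells. CHASERR, which lies beside CHD2 and is known to limit its expression, had 29 reads in NKAP siRNA cells (95% interval 19.4 to 41.6), against 74 in control cells (58.1 to 92.9, or 49.8 to 79.6 at the NKAP siRNA depth). The summits lay 93.0 bp into CHASERR in NKAP siRNA cells and 16.0 bp into it in control cells. JPX, an activator of the X-inactivation RNA, had 26 reads in each library, with a fold of 13.3 in NKAP siRNA cells and 9.03 in control cells. FIRRE had a member peak in the control list only (fold 4.67, 9 reads), and FTX in the NKAP siRNA list only (6.13, 13 reads), and the control peak over it was no member at FTX. MALAT1 had peaks in both lists with summits over 1000 bp from its ends, and HOTTIP, HOTAIRM1 and HOXA11-AS had theirs within 1000 bp of a coding gene end.

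Of 31 noncoding snoRNA hosts 15 had a member peak, 14 of them in both lists. Small nucleolar RNAs guide the modification of ribosomal RNA and are cut from the introns of these hosts. SNHG25 (chromosome 17, 64145970 to 64146309), with SNORD104 and SNORA50C beside it, had a fold of 46.0 in NKAP siRNA cells, against 77.8 in control cells, the highest of all control members. SNHG5, whose promoter is printed above, had a fold of 43.1 with 92 reads in NKAP siRNA cells, against 63.5 with 135 reads in control cells. Its peak spanned 2551 bp in NKAP siRNA cells and 8323 bp in control cells. SNHG26 and SNHG29 showed the same contrast in width. The SNHG26 peak spanned 3154 bp in NKAP siRNA cells and 11414 bp in control cells, with 71 reads in NKAP siRNA cells and 105 in control cells. The SNHG29 peak spanned 2649 bp in NKAP siRNA cells and 10225 bp in control cells, with 67 reads in NKAP siRNA cells and 103 in control cells. The read intervals at SNHG5, SNHG26 and SNHG29 overlap once the control is scaled to the same depth. The NKAP siRNA library is the shallower, and the part of depth in these widths was not tested. At SNHG15 (40.1 in NKAP siRNA cells, 41.8 in control cells) and SNHG32 (13.9 in NKAP siRNA cells, 14.9 in control cells) the folds were close, and at SNHG16 the fold was 18.7 in NKAP siRNA cells and 16.2 in control cells. The only host in 1 list was SNHG1, where the NKAP siRNA summit lay 478 bp past the far end and a control peak with its summit elsewhere overlapped it. Another 15 hosts, ZFAS1, SNHG3 and SNHG6 among them, had peaks that were no members, and the summits at GAS5 and SNHG12 lay over 1000 bp from their ends.

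Of 27 microRNA hosts 13 had a member peak, 8 of them in both lists. MIR23AHG, which carries miR-23a, miR-27a and miR-24, had a fold of 30.6 with 65 reads in NKAP siRNA cells, against 24.7 with 73 reads in control cells. MIR17HG, the host of the oncogenic miR-17 cluster, had folds of 21.3 in NKAP siRNA cells and 20.5 in control cells. MIR34AHG, the p53-induced host of miR-34a, had 14.1 in NKAP siRNA cells and 14 in control cells. For MIR222HG, and for MIRLET7IHG, the host of let-7i, which is not among the 27 and is named for its fold, 3 of the mature microRNAs they carry are printed from RefSeq (GRCh38.p14) with the seed, bases 2 to 8, in capitals.
miR-221-3p: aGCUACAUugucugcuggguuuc
miR-222-3p: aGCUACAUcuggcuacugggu
let-7i-5p: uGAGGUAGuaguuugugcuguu
miR-221-3p and miR-222-3p share the seed, and let-7i-5p has its own. At MIR222HG the NKAP siRNA peak over the start spanned 21949 bp with a fold of 26.9 and 57 reads, and the control peak there spanned 10520 bp with a fold of 9.03 and 53 reads. The wider NKAP siRNA peak has its summit inside the locus and over 1000 bp from an end, so the NKAP siRNA member at MIR222HG is another, weaker peak at the far end (7.12, 17 reads), and the read intervals that were apart compare different peaks. At the shared start of MIRLET7IHG and LINC01465 the fold was 18.5 in NKAP siRNA cells and 54.6 in control cells, while the reads were 79 in NKAP siRNA cells (62.5 to 98.5) and 116 in control cells (95.9 to 139). At the NKAP siRNA depth the control interval is 82.1 to 119, which overlaps the NKAP siRNA interval. Hosts in the NKAP siRNA list only were MIR3142HG (fold 4.99) and DLEU2 (10.7), and those in the control list only were MIR22HG (6.07), MIR193BHG (6.47) and MIR29B2CHG (5.07). All but DLEU2 lay below the median fold of the members of their list, which is 7.88 in the NKAP siRNA list and 7.47 in the control list. The DLEU2 peak was overlapped by a control peak that was no member at that gene. An NKAP siRNA peak covered an end of MIR22HG without being a member there. The control members at MIR22HG, MIR193BHG and MIR29B2CHG lay nearest the far end of the gene, not its start. Their summits were 725, 520 and 954 bp from that end, with 12, 13 and 11 reads. The 11 hosts with no peak near an end include MIR31HG, MIR100HG, MIR155HG and MIR503HG.

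All 7 members among 15 genes tied to p53, DNA damage or genome stability stood in both lists. So did 40 of the 54 listed genes with a member peak, and 764 of 1257 over all noncoding genes. NORAD, a cytoplasmic RNA that binds Pumilio proteins and guards chromosome number, had a fold of 34.1 with 102 reads in NKAP siRNA cells, against 42.5 with 126 reads in control cells. PVT1, the neighbour of MYC, had a fold of 10.9 in NKAP siRNA cells and 25.6 in control cells, with 81 reads in NKAP siRNA cells and 83 in control cells. The fold and the reads thus give different pictures of PVT1, since the caller's background at its summit differed between the lists. PURPL, a p53-induced RNA, showed the reverse, with 25 reads in NKAP siRNA cells and 51 in control cells but folds of 11.4 in NKAP siRNA cells and 6.53 in control cells. LINC00467 had folds of 5.80 in NKAP siRNA cells and 16.9 in control cells, with 24 reads in NKAP siRNA cells and 36 in control cells. PINCR had 16 reads in NKAP siRNA cells and 20 in control cells. LINC-PINT, with its members at the far end, had 15 in NKAP siRNA cells and 9 in control cells.

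Among 40 genes associated with growth, stress or cancer 17 had a member peak, 11 in both lists (NORAD stands here too, under an older symbol). LINC00941 had a fold of 37.1 with 93 reads in NKAP siRNA cells and 42.2 with 96 reads in control cells. LINC00673 had 16.7 with 71 reads in NKAP siRNA cells and 27.1 with 88 reads in control cells. The largest contrast in reads was at LINC01638, with 18 reads in NKAP siRNA cells (10.7 to 28.4) and 78 in control cells (61.7 to 97.3). The NKAP siRNA peak there was 611 bp wide with its summit 957 bp into the gene, and the control peak was 4506 bp wide with its summit at -121 bp, so the lists placed the summit at different points. CYTOR had 30 reads in NKAP siRNA cells and 55 in control cells, and DLEU1 had 21 in NKAP siRNA cells and 39 in control cells. SAMMSON, LINC02381 and CRNDE had reads within 1 of each other in the lists. In the NKAP siRNA list only were CCAT1 (5.11), VIM-AS1 (6.20) and LUCAT1 (8.05), the last with a peak of 6605 bp that was among the 5 widest members of that list. A control peak that was no member at VIM-AS1 overlapped the peak there, and a control peak that was no member at LUCAT1 covered an end of that gene. The NKAP siRNA summits at VIM-AS1 and LUCAT1 lay nearest the far end, 435 bp and 989 bp from it. In the control list only were LINC00460 (6.07), LINC00942 (4.35) and LINC00665 (5.49), each with 12 reads. HULC, PCA3, BANCR and SCHLAP1 were among 19 with no peak near an end, as were LINC00511, CASC15 and H19.

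None of the 19 developmental or tissue-restricted entries, among which LINC00261 stands under 2 names, had a member peak. Of the 19, 16 had no peak near an end in either list, among them SOX2-OT, RMST and LINC00261, and 3 had a peak nearby that was no member. Of all 13118 noncoding genes with an end away from coding genes, 9.58% had a member peak in either list. In so short a list, finding none is near that share. Of the small structured RNAs, most of which are made by Pol III, 8 of 9 have another biotype and fell outside the rule, and the one left had no peak. A list ends at the authors' threshold, so a gene with no peak can hold Pol II below it.

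Outside the listed genes, the highest folds were at little-known loci, several beside small RNA genes or pseudogenes. LOC112268218 on chromosome 1 had the highest fold of the NKAP siRNA members, 59.3 with 120 reads, against 36.8 with 109 reads in control cells, and the pseudogene SLC35E2A lies within 1000 bp of its summit. SCARNA2 had a fold of 46.8 with 100 reads in NKAP siRNA cells, against 27.3 with 135 reads in control cells, so that fold and reads ran in opposite directions. LOC105370449 on chromosome 14 had 35.2 with 113 reads in NKAP siRNA cells and 74.5 with 172 reads in control cells. Its summit lay within 1000 bp of RNU1-28P, a pseudogene of the U1 small nuclear RNA. LOC112268274 had folds of 43.6 in NKAP siRNA cells and 42.4 in control cells beside the snRNA gene LOC124904613. LINC01970 had its summit 5 bp into the gene in NKAP siRNA cells and 14 bp in control cells, with folds of 37.2 in NKAP siRNA cells and 45.5 in control cells. Apart from those already named, the 5 widest members of a list included LINC02983 (8530 bp in NKAP siRNA cells, 10259 bp in control cells) and RAD51B-AS1 (7185 bp in NKAP siRNA cells, 6901 bp in control cells).

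The strongest members that stood over 5000 bp from any peak of the other library were modest in the NKAP siRNA list and somewhat higher in the control list. They were the highest of 85 such members in the NKAP siRNA list and of 235 in the longer control list, so the pools were unequal. In the NKAP siRNA list the first was LOC130890646 on chromosome 7, with a fold of 13.3 and 26 reads at 17682 bp from the nearest control peak. The next 9 were LOC105369724, LOC107984260, LOC105370943, LOC105370086, LINC01537, LOC124901783, LOC107986910, LINC01888 and FLJ32255, with folds between 8.75 and 7.60 and 15 to 22 reads. At its other end LOC105369724 had stronger member peaks that overlapped between the lists. Their folds were 13.0 with 35 reads in NKAP siRNA cells and 13.9 with 32 reads in control cells. In the control list HRAT17 on chromosome 7 came first, with a fold of 16.8 and 35 reads over 3131 bp at 52789 bp from the nearest NKAP siRNA peak. LINC02864 followed at 15.9 and LOC105378027 at 14 with 45 reads. The others were LOC105372255 and LOC107986087 (12.1 each), the shared starts of LOC101928450 with LINC01836 (11.9) and of C1orf220 with LOC124904460 (11.1), the site of LINC03100 and LINC01881 (11.7), LOC124905031 (11.2) and LOC124904860 (10.7).

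Where a member of one list overlapped a member of the other, the summit mostly had fewer reads and the peak was mostly narrower in NKAP siRNA cells, as over all peaks. The 706 overlapping pairs had a median of 23 summit reads in NKAP siRNA cells and 29 in control cells. Their median ratio was 0.821 (quartiles 0.667 to 1.00), beside 0.778 at coding gene ends, 0.824 inside coding genes and 0.800 over all peaks, and beside an estimated depth ratio of 0.857. The ratio was below the depth ratio at 54.9% of member pairs, 65.1% of pairs at coding gene ends and 59.4% of all pairs. The median width was 857 bp in NKAP siRNA cells and 1205 bp in control cells, and the NKAP siRNA peak was the narrower in 76.1% of pairs, beside 83.7% at coding gene ends and 79.3% overall. The summits of a pair lay a median of 112 bp apart. The pairs with the most unequal reads, named after their values were seen, were LINC01638, LINC03033 with LINC01303 (21 reads in NKAP siRNA cells, 79 in control cells) and LOC105376134 (10 in NKAP siRNA cells, 33 in control cells) on the low side. On the high side were HAR1B (42 in NKAP siRNA cells, 20 in control cells), a gene of a human accelerated region, and NHIP (33 in NKAP siRNA cells, 16 in control cells).

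**Figure D4:**
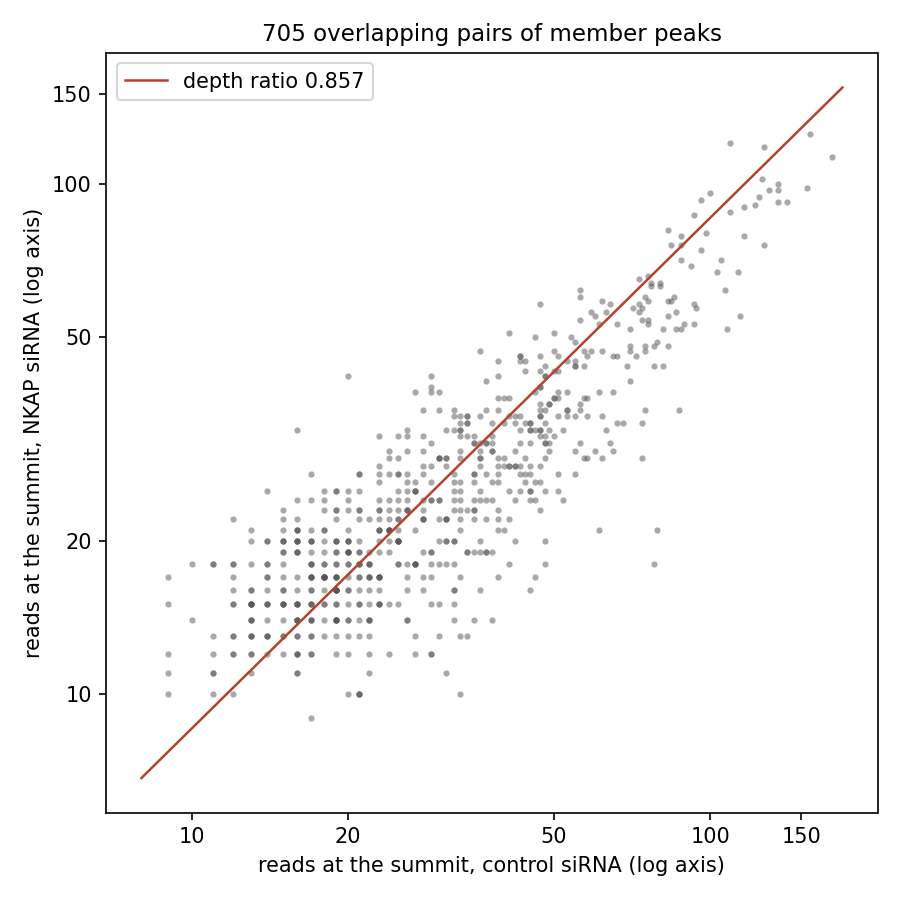
Reads at the summit in NKAP siRNA cells (vertical log axis) against control cells (horizontal log axis) for the 705 overlapping pairs of member peaks with a read count in both lists. The red line marks the estimated depth ratio of 0.857. Points spread on both sides of the line, 54.9% of them below it, and no error bars are drawn since each axis is 1 library.

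The promoters of genes with a start peak were rich in CpG, more so where both lists held the peak. The CpG ratio is the number of CpG steps over that expected from the base content of the 300-base window. Its median was 0.675 at 467 genes with a start peak in both lists, 0.417 at 92 in the NKAP siRNA list only and 0.409 at 158 in the control list only. At 5657 genes with a start away from coding genes and no summit within 1000 bp it was 0.208. The GC content followed, at 61.7% in both lists, 55.2% in the NKAP siRNA list only, 53.8% in the control list only and 45.3% with no summit. A GC box (GGGCGG or CCGCCC) was in 49.7% of the windows of both lists, 33.7% of those in the NKAP siRNA list only, 30.4% of those in the control list only and 11.3% of those with no summit, against 25.5% of all 11383 windows. TATAA was rare throughout, at 3.85% in both lists and 2.58% of all windows, and a CCAAT box was in 35.3% of the windows of both lists and 34.7% of all. A pyrimidine start was in 25.1% of the windows of both lists and 19.6% of all. Among 10 SNHG genes with a start peak, 4 windows had a pyrimidine start and 2 had TATAA.

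The CpG ratio also went with strength inside a list. With start peaks cut by fold into 3 groups of equal size, from low to high, its median was 0.522, 0.588 and 0.737 in the NKAP siRNA list and 0.452, 0.611 and 0.744 in the control list. Overlap between the lists also went with strength, and the CpG ratio and strength were not separated here.

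The near copies printed above belong to a wider set of duplicated promoters, picked out after their values were seen. Windows of 20 noncoding genes at 18 loci on 10 chromosomes share at least 10 words of 20 letters with LOC105373487 or LOC101930665. Of them 17 hold at least 4 CCAAT boxes and 5 have TATAA. A peak stood at 8 of the 18 loci in the NKAP siRNA list and at 9 in the control list, with all 8 shared. Folds were between 7.42 and 43.3 in NKAP siRNA cells and between 12.7 and 54.7 in control cells, and the NKAP siRNA fold was the lower at each of the 8 shared loci, as it was in 59.9% of overlapping member pairs and 63.5% of all pairs. At the LOC105373487 start, which LOC442028 shares on the other strand, the fold was 41.4 with 92 reads in NKAP siRNA cells and 54.7 with 141 reads in control cells. At LOC101930665 it was 43.3 with 90 reads in NKAP siRNA cells and 48.0 with 116 reads in control cells, and at LOC105371703 22.9 with 98 reads in NKAP siRNA cells and 51.8 with 154 reads in control cells. The other shared loci are LINC01518, LOC107984132, LOC124903277, LINC01189 and LOC497256, and LOC124900194 had a control peak only (13.8). The start of LOC124900194 lies inside a coding gene or within 1000 bp of a coding gene end, and that peak was no member at LOC124900194. Reads from such copies can be split or misplaced among them, and the authors' handling of reads that map to several places is not given in the sources used here, so the height at each copy is uncertain.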

How the data were processed

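Pol II ChIP-seq peaks of 2 libraries were analysed, 1 for NKAP siRNA and 1 for control siRNA, with groups taken from the labels. Per the submitters' processing notes, peaks came from MACS2 2.1.0 on build hg38, with Bowtie 1.1.2, Trimmomatic 0.33 and bcl2fastq 2.17 among the tools named; no source used here gives settings or the background library. Each deposited list holds the peaks of 1 library, called by the authors per sample, with a deposited score, the authors' fold enrichment at the summit, and the deposited −log10 p-value and −log10 q-value. The authors' lists end at a −log10 q-value of 3.02 (NKAP siRNA) and 3.01 (control). Fold and p served to rank and describe the peaks of a single list. Folds were also set side by side between the lists, without correction for the depth or background of each library.

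Genes, strands, promoter windows and microRNAs came from RefSeq tables of GRCh38.p14, the same genome build; exons were not used here. Peaks overlapped when they shared at least 1 bp. Reads at a summit were solved from fold and p, taking the fold as pileup plus 1 over background plus 1. Whole reads were accepted within a relative tolerance of 0.000100 on the −log10 p-value. The NKAP siRNA pileup had been scaled by 0.926 by the authors' caller, and the control pileup by 1.00. The depth ratio came from a low percentile of the caller's backgrounds solved at the summits, the pileup scale and the smallest peak width. A PCR copy counts as a read where the authors kept it, so intervals cover counting error only. Shares have 95% Wilson intervals, their differences Newcombe intervals, and reads exact Poisson intervals. Python 3.11.15, numpy 2.4.6, pandas 2.3.3, scipy 1.17.1 and matplotlib 3.10.9 were used, and the scripts were tested on simulated data.

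Members and gene lists were chosen with earlier results of these data known. Genes were named by rule: listed genes with a member peak, the 10 highest folds of each list, the 10 highest folds over 5000 bp from the other library's peaks, and the 5 widest peaks. Alternatives were other overlap rules, q-value limits, equal list lengths, windows, distances and gene sets.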

Additional observations from a re-analysis of the deposited data

How the results depend on the processing

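Of 86 values under 13 other settings, 55 stayed within their error or within 1.5 times the count and 31 moved. A reversal of sign was looked for only in the difference in member share, and none was found. Genes in the NKAP siRNA list only were fewer than those in the control list only in the main setting (162 and 331), but not with equal numbers (207 and 203). The overlapped share of NKAP siRNA members was 80.6% with an overlap of 50% of the shorter peak, 73.5% with summits within 500 bp, 88.1% at a −log10 q-value of at least 10, 79.0% with equal numbers of peaks, 87.4% with a 500 bp window and 87.4% without LOC genes. For control members it was 62.1% (50% of the shorter peak), 61.7% (summits), 75.4% (equal numbers), 72.0% (500 bp), 58.5% (2000 bp) and 68.4% (without LOC). Members were 3.96% of NKAP siRNA peaks and 3.72% of control peaks at a −log10 q-value of at least 10, 2.69% (NKAP siRNA) and 2.27% (control) with a 500 bp window, 5.10% (NKAP siRNA) and 4.67% (control) with 2000 bp, 3.01% (NKAP siRNA) and 2.57% (control) at 5000 bp from coding ends, 1.80% (NKAP siRNA) and 1.57% (control) without LOC genes, and 3.51% of control peaks with equal numbers. The difference in these shares was between 0.189 and 0.468 points, its interval reaching below 0 with equal numbers and at a −log10 q-value of at least 10. Genes in both lists were 487 at that limit and 367 without LOC genes. Genes in the NKAP siRNA list only were 94, 69 (without LOC) and 78 when no control peak could lie within 5000 bp of an end, and in the control list only 203 (equal numbers), 157 (without LOC) and 202 (none within 5000 bp). That last setting, whole peaks away from coding ends and leaving out the duplicated family were chosen after seeing the data. Windows, gene sets and list lengths change which peaks are counted by construction; for the rest the cause was not tested.

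No paired analysis was possible because each group held 1 library. Depth limits what a list shows: the lowest summit had 8 reads, weaker sites are left out by the authors' threshold, and the NKAP siRNA library was the shallower. Nothing here separates the siRNA from the library.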
